A study of Mus musculus with 6 samples.

Results

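The CCN family genes Ccn1, Ccn2 and Ccn5 and the YAP and TEAD pathway genes Ankrd1, Amotl2, Ajuba, Lats2, Axl, Tead1 and Yap1 are described here in mouse stomach fibroblasts. These 10 genes were taken by symbol. All 10 were among the 14228 genes of the count table, and all 10 passed the filter on low counts that left 10148 genes for testing. RNA was measured in 3 libraries of cancer-associated fibroblasts (CAF) and 3 libraries of fibroblasts from control stomachs (normal) by MARS-seq, which counts transcript ends. Every mouse, control mice included, carried the triple-transgenic iLgr5;GLI2A alleles, which drive an active form of the Hedgehog transcription factor GLI2 in stomach stem cells marked by Lgr5 once induced, and was 8 weeks old. CAF came from mice given tamoxifen in corn oil by gavage for 5 days and then doxycycline chow for 3 weeks, with doxycycline also in sucrose water for the first 3 days, while the normal fibroblasts came from mice given corn oil and no doxycycline. The drugs and the cancer came together in the CAF mice, and their effects cannot be told apart. The CAF libraries held the cells of 1, 2 and 2 mice, and the normal libraries those of 1, 1 and 2 mice. Live podoplanin-positive cells were sorted after CD31-positive, CD45-positive and EpCAM-positive cells had been gated out.

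CCN proteins are secreted proteins of the extracellular matrix that bind integrins, growth factors and matrix components. CCN1 (CYR61) and CCN2 (connective tissue growth factor) are made by fibroblasts in wounds and fibrosis, and CCN5 (WISP2) is the member that lacks the C-terminal cystine-knot domain. Both CCN1 and CCN2 are standard readouts of YAP and its paralog TAZ, the transcriptional coactivators that the Hippo kinases LATS1 and LATS2 phosphorylate and keep out of the nucleus. In the nucleus YAP and TAZ bind TEAD transcription factors, which recognise the core sequence GGAATG. In cultured fibroblasts, stiff matrix and cell spreading are known to move YAP and TAZ into the nucleus. RNA levels do not measure that movement.

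Depth differed widely between libraries. CAF libraries 1, 2 and 3 held 644522, 6422568 and 6421010 counts, against 3259644, 903176 and 768420 counts in normal libraries 1, 2 and 3. A single count was worth between 0.134 and 1.45 CPM (counts scaled to a common library size) in CAF and between 0.404 and 1.25 CPM in normal libraries. All 10 fibroblast markers had counts in every library, and together they took 1.10% to 3.77% of counts in CAF and 0.434% to 1.52% in normal libraries. The 20 gastric gland cell markers, such as the mucin gene Muc5ac and the pepsinogen gene Pgc, took 0.591% to 0.858% of counts in CAF libraries, against 19.8%, 16.2% and 4.17% in normal libraries 1, 2 and 3. Of these 20 markers, Kcne2 in CAF library 1 was the one at 0. The 10 smooth muscle and pericyte markers took 0.320%, 0.235% and 0.112% in CAF libraries 1, 2 and 3, against 0.0957%, 0.0620% and 0.142% in normal libraries 1, 2 and 3. The immune share was 0.00791% to 0.183% in CAF and 0.00436% to 0.0685% in normal libraries, with Ptprc, which encodes CD45, at 0 in 1 CAF and 2 normal libraries. Endothelial markers took 0.00357% to 0.00691% in CAF and 0.000781% to 0.00376% in normal libraries, and Pecam1, which encodes CD31, was at 0 in CAF library 1 and normal library 3. General epithelial markers such as Epcam took 0.141% to 0.305% in CAF and 0.115% to 0.390% in normal libraries, and squamous epithelial markers 0.00760% to 0.0118% in CAF and 0.0163% to 0.232% in normal libraries, which did not overlap. The summed mesothelial list took 0.0174% to 0.0258% of counts in CAF and 0.0395% to 0.0744% in normal libraries, which did not overlap. It was led by the keratin gene Krt19, which is also an epithelial marker. Krt19 took at least 67.7% of the summed CPM in CAF and at least 96.1% in normal libraries. Of the more specific members, Msln had 5.79, 7.65 and 9.78 CPM in CAF libraries 1, 2 and 3, against 0, 1.25 and 1.24 CPM in normal libraries 1, 2 and 3. Upk3b had 0.536 to 1.64 CPM in CAF libraries and 0 in all 3 normal libraries. The groups overlapped for Lrrn4 and for Gpm6a, which had 0, 0.547 and 0.670 CPM in CAF libraries 1, 2 and 3, against 2.42, 8.78 and 0 CPM in normal libraries 1, 2 and 3. They also overlapped for Wt1, with 0, 16.4 and 59.6 CPM in CAF libraries 1, 2 and 3, against 0, 7.52 and 1.24 CPM in normal libraries 1, 2 and 3. The part of these other cells in the results below was not tested. In bulk samples such as these, fewer cells of a type and less RNA per cell cannot be told apart.

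All 10 genes had a positive log2 fold change of CAF over normal, with a median of 0.89, against a median of 0.06 over all tested genes, 53.9% of which were positive. The 10 genes and the lists below were chosen with earlier results of these data known, so such counts and medians do not test them as sets. The sign of Yap1 and of Ccn1 turned negative in some of the alternative fits. Ccn5 alone passed at an adjusted p under 0.05 in edgeR's quasi-likelihood test (Benjamini-Hochberg over all tested genes), and none of the 10 was called lower, also by DESeq2 or limma-voom, or had an unadjusted p under 0.05 in that direction. The edgeR test called 0.897% of tested genes higher in CAF and 0.207% lower, and DESeq2 called 3.65% higher and 4.16% lower. Ccn2, Ccn5, Ankrd1 and Tead1, 4 of the 10, had an unadjusted p under 0.05 in the higher direction, as did 7.37% of tested genes. In either direction 1557 of the 10148 tested genes had one (edgeR), and 748 of these were higher in CAF. The same 4 had all CAF libraries above all normal libraries, which held for 10.6% of tested genes. For the other 6 genes the groups overlapped.

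**Figure D1:**
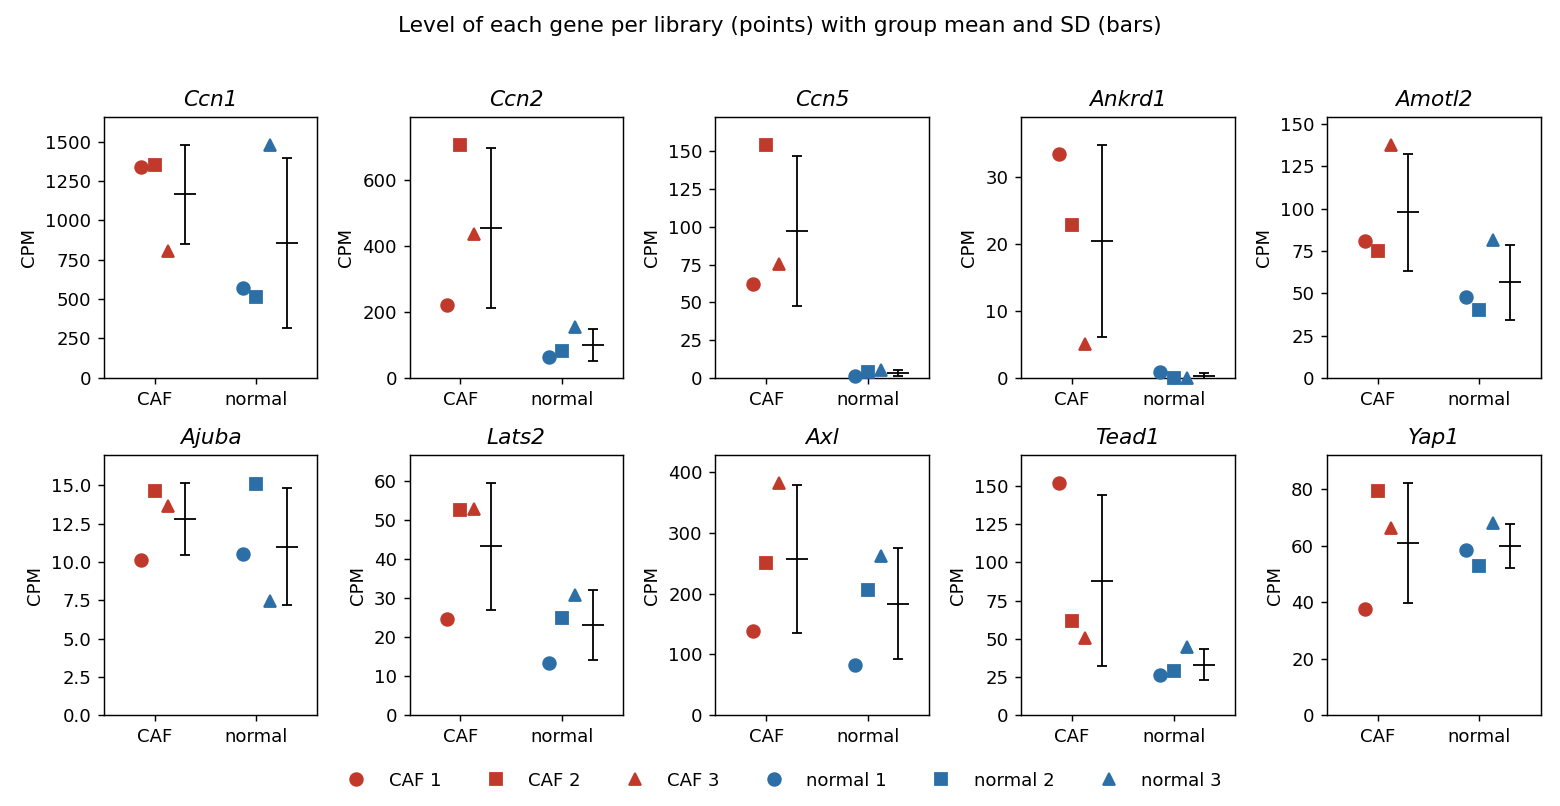
Level of each of the 10 genes in CPM (vertical axis, starting at 0, its own scale for each gene) in the 3 CAF libraries (red, left) and the 3 normal libraries (blue, right), with bars for the mean and SD of each group. The CAF points of Ccn2, Ccn5, Ankrd1 and Tead1 lie above all normal points, and normal library 3 (triangle) has the highest Ccn1 level of all 6 libraries, at 1476 CPM.

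Ccn5 was the CCN gene that passed the test. It lies on the plus strand at chr2:163820861-163833146 (mm10). Its level was 62.3, 154 and 75.1 CPM in CAF libraries 1, 2 and 3, against 1.21, 3.76 and 4.95 CPM in normal libraries 1, 2 and 3. Every CAF library lay far above the highest normal library. The normal values rested on 3, 3 and 4 counts, so the ratio of pooled rates was 45.6 with a 95% exact interval of 24.8 to 95.3, which covers counting error only. The mean was 97.1 ± 49.7 CPM in CAF and 3.31 ± 1.91 CPM in normal libraries (SD, n = 3 each), and the fitted log2 fold change was 5.10 ± 0.65 (SE; 34.3-fold; adjusted p = 0.0201, edgeR's quasi-likelihood test). In the authors' deposited table Ccn5 had a log2 fold change of 5.06 and an adjusted p of 5.34e-09. The call did not hold in 4 of the 6 fits that left out 1 library: the adjusted p was 0.0762 without CAF library 2, 0.0540 without CAF library 3, 0.155 without normal library 1 and 0.0995 without normal library 2. The fold was 21.9 without normal library 1, the lowest of these 6 fits. Over all 15 alternatives the adjusted p ranged from 2.9e-09 to 0.302, and the log2 fold change was positive in each.

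Ccn2 was also higher in every CAF library. It lies on the plus strand at chr10:24595442-24598683. Its antisense neighbour Gm15270 had at most 8 counts in any library, and whether reads were assigned by strand is not stated. Ccn2 had 222, 704 and 435 CPM in CAF libraries 1, 2 and 3, against 63.4, 81.5 and 154 CPM in normal libraries 1, 2 and 3. The groups did not overlap, although CAF library 1 lay nearer to normal library 3 than to the other CAF libraries. The mean was 454 ± 242 CPM in CAF and 99.5 ± 47.7 CPM in normal libraries (SD, n = 3 each), a fitted 4.59-fold difference that missed the threshold (log2 fold change 2.20 ± 0.54, SE; adjusted p = 0.0939, edgeR). Without normal library 3, the normal library with the highest Ccn2 level, the adjusted p was 0.0333, and over all 15 alternatives it ranged from 0.0034 to 0.501. In the authors' deposited table, where 2.76% of the listed genes had an adjusted p under 0.05 in the higher direction, Ccn2 had a log2 fold change of 2.18 and an adjusted p of 0.00487. Ccn2 thus passed there and not in edgeR's test, as did Ankrd1.

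Ccn1 had the most counts of the CCN genes, with no correction for length, and no difference beyond its spread. It lies on the minus strand at chr3:145646976-145649981. Ccn1 had 1341, 1349 and 804 CPM in CAF libraries 1, 2 and 3, against 572, 514 and 1476 CPM in normal libraries 1, 2 and 3. The groups overlapped, with normal library 3 the highest of all 6 and CAF library 3 the lowest of its group. The mean was 1165 ± 313 CPM in CAF and 854 ± 539 CPM in normal libraries (SD, n = 3 each), with a log2 fold change of 0.45 and an SE of 0.50 (adjusted p = 0.749, edgeR). The log2 fold change was 1.03 without normal library 3 (adjusted p = 0.114, edgeR) and -0.29 with normal library 3 as the lone normal library.

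Ccn1 is also an immediate early gene, one of those induced within minutes of a stimulus such as cell dissociation. The 16 other immediate early and dissociation genes examined took 1.53%, 1.52% and 1.47% of counts in CAF libraries 1, 2 and 3, against 1.28%, 1.25% and 2.33% in normal libraries 1, 2 and 3. Their summed level was 14270, 13330 and 12610 CPM in CAF libraries 1, 2 and 3, against 16900, 14140 and 22200 CPM in normal libraries 1, 2 and 3. Normal library 3 had the highest sum on both scales, as it had for Ccn1, while normal library 1 lay below the CAF libraries in share and above them in CPM. Singly, 9 of the 16 genes were highest in normal library 3. Of these 16 genes, 3 had a positive log2 fold change and the median was -0.48. None passed edgeR's adjusted threshold or that of limma-voom, and DESeq2 called 1 higher (Ier3) and 1 lower (Atf3) in CAF. At an unadjusted p under 0.05, edgeR gave 1 higher (Ier3) and 2 lower (Atf3 and Klf2). Of all 10148 tested genes, 1557 had such a p in either direction, and 748 of these were higher in CAF. The part of dissociation in the Ccn1 level was not tested.

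Of the other CCN genes, Ccn4 and Ccn3 were in the table. Ccn4 (WISP1), a WNT-inducible member, had 8.69, 27.9 and 20.9 CPM in CAF libraries 1, 2 and 3, against 1.21, 2.51 and 1.24 CPM in normal libraries 1, 2 and 3. All CAF libraries were above all normal libraries, whose values rested on 6 counts in all. The ratio of pooled rates was 16.1 with a 95% exact interval of 7.32 to 44.1, and edgeR's adjusted p was 0.0557. Ccn4 passed in the authors' deposited table (adjusted p = 0.00152), in DESeq2 (adjusted p = 0.00114) and in edgeR without normal library 3 (adjusted p = 0.0371), and its adjusted p ranged up to 0.428 over the 12 alternatives that gave a value. Ccn3 (NOV) had 10.1, 17.5 and 75.1 CPM in CAF libraries 1, 2 and 3, against 22.6, 7.52 and 28.5 CPM in normal libraries 1, 2 and 3. Its groups overlapped (log2 fold change 0.85, adjusted p = 0.695, edgeR), and without CAF library 3 the log2 fold change was -0.44.

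The make-up of the CCN counts was compared as well, a comparison that was added after the levels had been seen. Shares are of the summed counts of Ccn1 to Ccn5, with no correction for transcript length. They compare libraries with each other, not genes with each other. Ccn1 made up 81.6%, 59.9% and 57.0% of CCN counts in CAF libraries 1, 2 and 3, against 86.6%, 84.4% and 88.7% in normal libraries 1, 2 and 3. Ccn2 made up 13.5%, 31.3% and 30.9% in CAF libraries 1, 2 and 3, against 9.60%, 13.4% and 9.23% in normal libraries 1, 2 and 3. For Ccn2, CAF library 1 (95% exact binomial interval 11.5% to 15.6%) thus lay at the level of normal library 2 (10.5% to 16.7%), and the other CAF libraries lay well above. Ccn5 made up 3.79%, 6.84% and 5.33% in CAF libraries 1, 2 and 3, against 0.183%, 0.617% and 0.298% in normal libraries 1, 2 and 3. The mean Ccn1 share was 66.2% ± 13.4 in CAF and 86.6% ± 2.17 in normal libraries (SD, n = 3 each). For Ccn1, Ccn2, Ccn4 and Ccn5 the groups did not overlap, and the two-sided exact permutation p was 0.1, the smallest that 3 against 3 libraries allow. The shares of a library add up to the whole, so these are not separate results. For Ccn4, CAF library 1 had 0.529% (6 counts, 95% exact interval 0.194% to 1.15%). Normal library 2 had 0.412% (2 counts, 0.0499% to 1.48%), so these intervals overlapped. For Ccn3 the exact permutation p was 1.

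**Figure D2:**
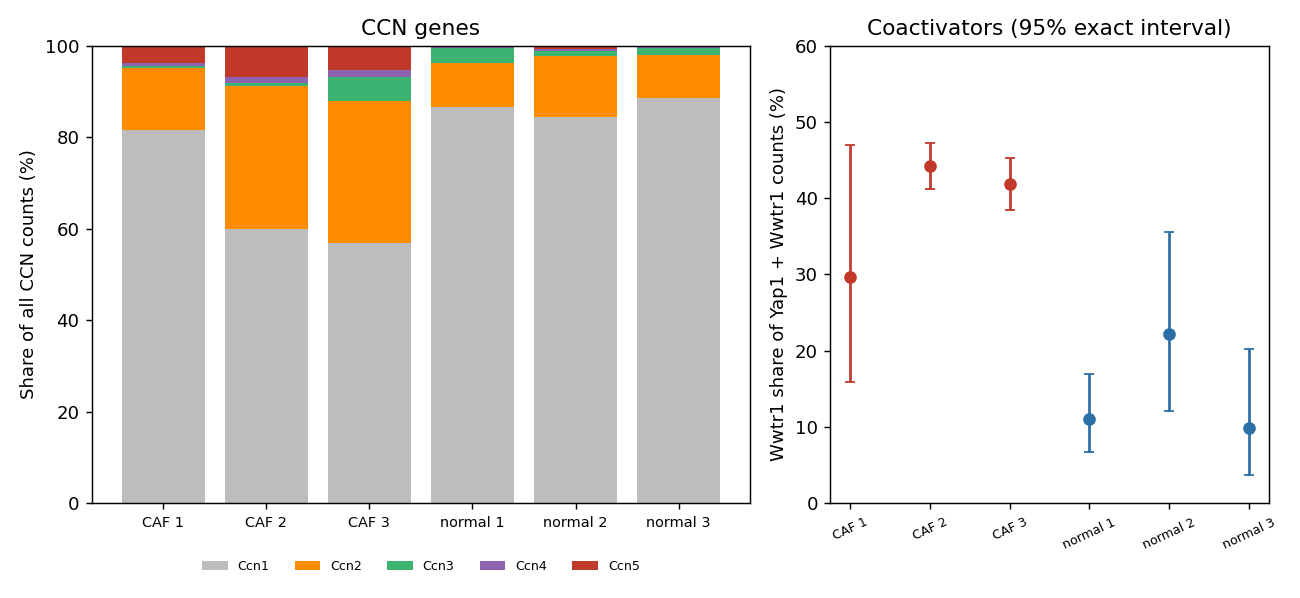
Left, share of the summed Ccn1 to Ccn5 counts taken by each gene in percent in each CAF and normal library; right, share of Wwtr1, the gene of the YAP paralog TAZ, in the summed Yap1 and Wwtr1 counts in percent, with 95% exact binomial intervals. Ccn1 took between 57.0% and 81.6% in CAF and between 84.4% and 88.7% in normal libraries, and the Wwtr1 share was 29.7%, 44.2% and 41.8% in CAF libraries 1, 2 and 3, against 11.0%, 22.2% and 9.84% in normal libraries 1, 2 and 3.

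Among the YAP target genes other than the CCN genes, Ankrd1 stood apart. It encodes an ankyrin repeat protein found in the nucleus and the sarcomere and lies on the minus strand at chr19:36111961-36120099. Ankrd1 had 33.3, 22.8 and 5.09 CPM in CAF libraries 1, 2 and 3, against 0.808 CPM in normal library 1 and 0 in normal libraries 2 and 3. These levels came from 23, 167 and 38 counts in CAF and from 2 counts in all in normal libraries. The ratio of pooled rates was 30.1, with a 95% exact interval of 8.23 to 250 that covers counting error only. The groups did not overlap, yet the gene missed the threshold in edgeR's test (adjusted p = 0.0705). In the authors' deposited table it had an adjusted p of 0.00216. The summed share of the 10 smooth muscle and pericyte markers, given above, was also highest in CAF library 1 and lowest of the CAF group in CAF library 3, but only 4 of the 10 (Tagln, Cnn1, Des and Cspg4) had that order singly. The markers also differed in direction between the groups. Myh11 was lower in every CAF library (20.3 to 47.4 CPM) than in every normal library (133 to 183 CPM). Actg2 was higher in every CAF library (221 to 489 CPM) than in every normal library (94.1 to 158 CPM). Cnn1 overlapped between the groups, with 86.9 CPM in CAF library 1 and 94.9 CPM in normal library 1. The part of smooth muscle and pericyte RNA in the Ankrd1 level was not tested.

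The angiomotin relative Amotl2 and the Hippo kinase gene Lats2 are YAP targets whose products restrain YAP. Amotl2, at chr9:102716672-102733418 on the plus strand, had 81.1, 75.0 and 138 CPM in CAF libraries 1, 2 and 3, against 47.7, 40.1 and 81.7 CPM in normal libraries 1, 2 and 3. Lats2, at chr14:57689662-57758388 on the minus strand, had 24.6, 52.6 and 53.0 CPM in CAF libraries 1, 2 and 3, against 13.3, 25.1 and 31.0 CPM in normal libraries 1, 2 and 3. In each of the pair, normal library 3 was the highest normal library and reached above the lowest CAF library. The log2 fold change was 0.80 ± 0.40 for Amotl2 and 0.97 ± 0.46 for Lats2 (SE), and neither passed edgeR's test (adjusted p = 0.407 for Amotl2 and 0.384 for Lats2). By GENCODE, Lats2 overlaps the protein-coding gene Gm49361 on the same strand, and Tead1 and Yap1 overlap other genes. None of these overlapping genes was in the count table, and their part in the counts was not tested.

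Axl and Ajuba showed smaller differences. Axl, which encodes a receptor tyrosine kinase for GAS6 and lies at chr7:25757273-25788705 on the minus strand, had 139, 251 and 382 CPM in CAF libraries 1, 2 and 3, against 83.2, 206 and 261 CPM in normal libraries 1, 2 and 3. Ajuba, which encodes a LIM domain protein that binds LATS kinases and lies at chr14:54567472-54577558 on the minus strand, had 10.1, 14.6 and 13.7 CPM in CAF libraries 1, 2 and 3, against 10.5, 15.0 and 7.43 CPM in normal libraries 1, 2 and 3. Both genes overlapped between the groups. Axl ranged widely within each group, and its log2 fold change of 0.50 ± 0.52 (SE) lay within its error, as did the 0.25 ± 0.45 of Ajuba (adjusted p = 0.732 for Axl and 0.850 for Ajuba, edgeR).

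Yap1 had nearly the same mean in both groups, and Tead1 was higher in every CAF library. Yap1, at chr9:7931999-8004596 on the minus strand, had 37.7, 79.3 and 66.3 CPM in CAF libraries 1, 2 and 3, against 58.6, 52.7 and 68.1 CPM in normal libraries 1, 2 and 3. The mean was 61.1 ± 21.3 CPM in CAF and 59.8 ± 7.79 CPM in normal libraries (SD, n = 3 each), and the log2 fold change of 0.05 had an SE of 0.35 (adjusted p = 0.970, edgeR). CAF library 1, the shallowest, was the lowest of all 6. Tead1, a DNA-binding partner of YAP at chr7:112679318-112906807 on the plus strand, had 152, 61.4 and 50.5 CPM in CAF libraries 1, 2 and 3, against 26.3, 28.8 and 44.6 CPM in normal libraries 1, 2 and 3. The groups did not overlap, but CAF library 1 carried much of the difference. The log2 fold change was 1.39 ± 0.50 (SE; adjusted p = 0.235, edgeR) with that library and 0.77 without it.

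Fibroblast and gland marker shares differed along with the groups. The fibroblast marker share was 1.10%, 3.05% and 3.77% in CAF libraries 1, 2 and 3, against 0.434%, 0.980% and 1.52% in normal libraries 1, 2 and 3. It was mostly higher in CAF, with CAF library 1 below normal library 3, and the part of fibroblast content in these results was not tested. The share of gland markers was lower in every CAF library than in every normal library, as given above. With the gland markers taken out before library sizes were computed, the log2 fold change of Ccn5 was 5.05 (adjusted p = 0.0228, edgeR), that of Ccn2 2.16 and that of Tead1 1.32. The part of the other RNA of gland cells in these results was not tested.

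**Figure D3:**
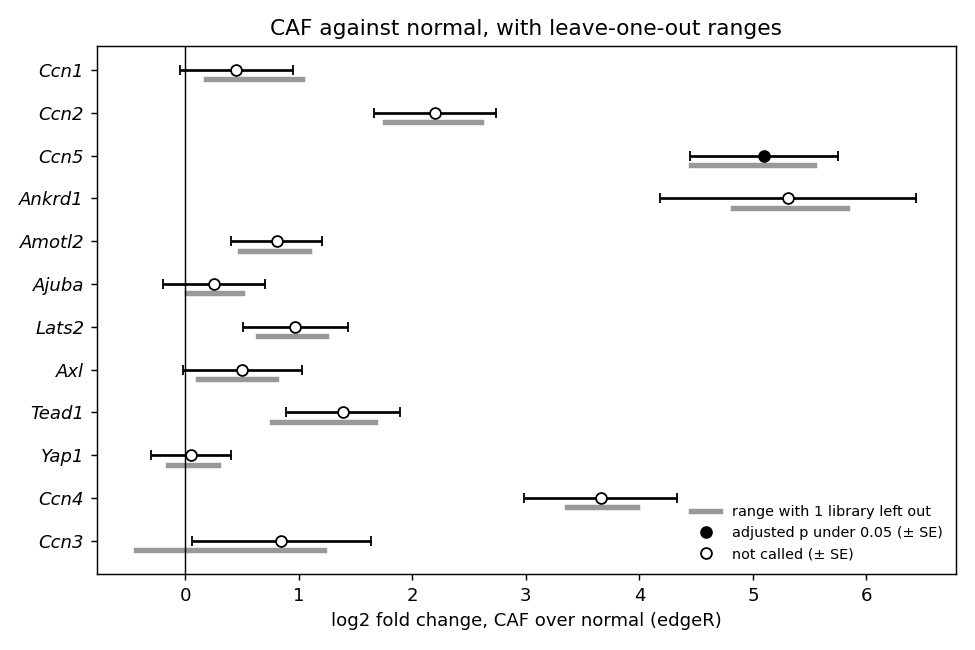
Fitted log2 fold change of CAF over normal for the 10 genes and for Ccn4 and Ccn3 (horizontal axis; points with bars of 1 SE from edgeR, filled where the adjusted p is under 0.05; grey spans from leaving out each library in turn). Ccn5 is at 5.10 with its span well above 0, Yap1 is at 0.05 with a span on both sides of 0, and the Ankrd1 span leaves out the fit without normal library 1, in which all remaining normal counts are 0.

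The wider YAP/TAZ target signature was examined beside these genes. Of 22 genes on that list, 20 passed the filter, 14 had a positive log2 fold change, and the median was 0.47. None passed edgeR's adjusted threshold, limma-voom called 0, and DESeq2 called 2 (Ankrd1 and Ccn2), both higher, against 3.65% of all genes. An unadjusted p under 0.05 (edgeR) was reached by 4 in the higher direction, against 7.37% of all tested genes, and by 0 in the lower. In either direction 1557 of the 10148 tested genes reached it. Without the 6 genes described above, 14 tested genes remained, 8 of them positive, with a median of 0.08, close to the 0.06 of all tested genes. After Ankrd1 and Ccn2 the smallest p in the higher direction belonged to Fjx1, which encodes a Golgi kinase related to Drosophila four-jointed. It had 18.8, 9.84 and 5.89 CPM in CAF libraries 1, 2 and 3, against 2.83, 5.02 and 1.24 CPM in normal libraries 1, 2 and 3 (adjusted p = 0.274, edgeR). The smallest p values in the lower direction were those of Tgfb2, F3 and Nt5e, with log2 fold changes of -0.90, -1.03 and -0.66 and adjusted p of 0.641, 0.670 and 0.738 (edgeR). The tissue factor gene F3 had 88.4, 228 and 97.2 CPM in CAF libraries 1, 2 and 3, against 81.2, 75.2 and 696 CPM in normal libraries 1, 2 and 3. The TGF-beta ligand gene Tgfb2 had 34.8, 23.8 and 24.5 CPM in CAF libraries 1, 2 and 3, against 18.6, 20.1 and 116 CPM in normal libraries 1, 2 and 3. In both genes normal library 3 alone was high.

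In the Hippo pathway and its cofactors, 28 of 33 genes passed the filter, 19 had a positive log2 fold change, and the median was 0.33. None passed edgeR's adjusted threshold, limma-voom called 0, and DESeq2 called 2 (Map4k4 and Wwtr1), both higher, against 3.65% of all genes. An unadjusted p under 0.05 (edgeR) was reached by 6 in the higher direction, against 7.37% of all tested genes, and by 0 in the lower. In either direction 1557 of the 10148 tested genes reached it. Without those of the 10 genes that are on this list, 23 tested genes remained, 14 of them positive, with a median of 0.26. Of these 23, 5 had an unadjusted p under 0.05 in the higher direction (edgeR). Wwtr1 encodes TAZ. It had 15.9, 62.9 and 47.7 CPM in CAF libraries 1, 2 and 3, against 7.27, 15.0 and 7.43 CPM in normal libraries 1, 2 and 3. All CAF libraries were above all normal libraries, although CAF library 1 lay close to normal library 2 (log2 fold change 2.16, adjusted p = 0.120, edgeR). As a share of Yap1 and Wwtr1 counts, again computed after the levels were seen and with no length correction, Wwtr1 made up 38.6% ± 7.77 in CAF and 14.4% ± 6.83 in normal libraries (SD, n = 3 each; exact permutation p = 0.1, the smallest possible). Map4k4, a kinase gene upstream of LATS, had 164, 84.0 and 84.4 CPM in CAF libraries 1, 2 and 3, against 38.4, 28.8 and 50.8 CPM in normal libraries 1, 2 and 3 (log2 fold change 1.48, adjusted p = 0.118, edgeR). Tead2 had 116, 62.3 and 38.8 CPM in CAF libraries 1, 2 and 3, against 23.4, 12.5 and 32.2 CPM in normal libraries 1, 2 and 3 (log2 fold change 1.64, adjusted p = 0.179, edgeR). Its CAF libraries fell in the same order as those of Tead1. Tead1 made up 44.5%, 32.0% and 30.2% of the counts of the Tead genes in CAF libraries 1, 2 and 3, against 33.2%, 41.1% and 30.0% in normal libraries 1, 2 and 3, and these shares overlapped (exact permutation p = 0.8). In the lower direction the smallest p values were those of the upstream regulators Nf2, Wwc1 and Taok3, with log2 fold changes of -0.38, -1.02 and -0.25, none called. Wwc1, which encodes KIBRA, had 91.3, 40.2 and 32.9 CPM in CAF libraries 1, 2 and 3, against 148, 168 and 7.43 CPM in normal libraries 1, 2 and 3. It was high in the normal libraries with the most gland marker RNA, and the part of that RNA in its level was not tested.

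**Figure D4:**
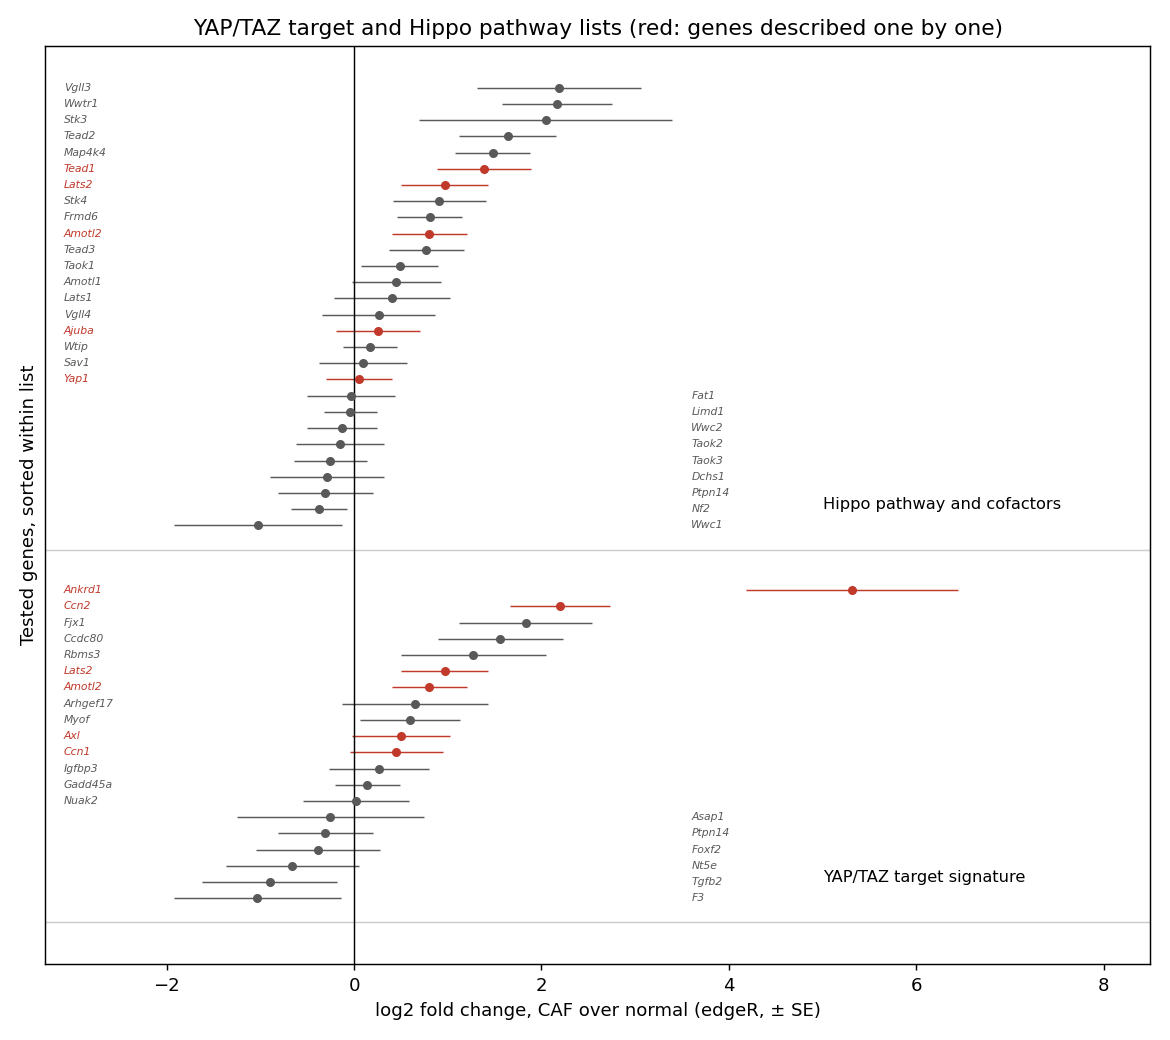
Fitted log2 fold change of CAF over normal (horizontal axis, points with bars of 1 SE from edgeR) for the 28 tested Hippo pathway and cofactor genes (upper block) and the 20 tested YAP/TAZ signature genes (lower block), sorted within each list. Of the upper block 19 points lie above 0 and of the lower block 14, and Ankrd1, at 5.31 with 2 normal counts behind it, is the farthest to the right.

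Genes whose level followed Ccn1, Ccn2 or Yap1 most closely over the 6 libraries were ranked by Pearson's r of log2 CPM over 9524 genes with a mean of at least 20 counts. With 6 libraries, such a ranking always finds high values, and the points share the groups, the depth and the gland share of each library. For Ccn1 the closest were Col18a1 (r = 0.983), Chst11 (0.981) and Cdc42se2 (0.979). Col18a1, a basement membrane collagen gene, had 1069, 829 and 510 CPM in CAF libraries 1, 2 and 3, against 201, 208 and 1157 CPM in normal libraries 1, 2 and 3. It shared with Ccn1 the high value in normal library 3. For Ccn2 the closest were Kcnj8 (r = 0.996), Ggta1 (0.992) and Tmod3 (0.987). Kcnj8, a potassium channel gene known from pericytes and smooth muscle, had 47.8, 168 and 86.9 CPM in CAF libraries 1, 2 and 3, against 6.87, 11.3 and 27.2 CPM in normal libraries 1, 2 and 3. Its order over the libraries was that of Ccn2. For Yap1 the closest were Gng10 (r = 0.987), Zswim6 (0.984) and Tmem41a (0.981), all lowest in CAF library 1.

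Promoter windows of 250 bases before to 50 bases after the start site were searched for the TEAD core on both strands, as GGAATG or its reverse complement CATTCC. RefSeq windows (GRCm38.p6) matched 7 of the 10 genes: Ccn1, Ankrd1, Amotl2, Ajuba, Lats2, Axl and Yap1. The core occurred in all 7 matched genes, against 16.6% of 27025 genes in the whole table, and in 7 of their 8 windows, against 14.7% of 32851 windows. The window without it is 1 of those of Lats2. The 7 genes were listed for their known tie to YAP and TEAD, so these shares are no test of that tie. Of the matched genes, Ankrd1 had all CAF libraries above the normal libraries, while the groups overlapped for Ccn1, Amotl2, Ajuba, Lats2, Axl and Yap1. Ccn2, Ccn5 and Tead1, whose CAF libraries also all stood above the normal libraries, had no window. The sites below are those that lie before the RefSeq start site, shown because the core is the sequence that TEAD factors read. RefSeq start sites can differ from the ends of the GENCODE gene positions given above. By those positions the Amotl2 site and the Ankrd1 sites lie inside their genes. The core is in capitals and each site is written 5′ to 3′ on the strand of its gene.
Ccn1, core ending 98 bases before the start site, chr3:145650073-145650098, minus strand: cgccaaccaaCATTCCtgagatgttt
Ankrd1, core ending 205 bases before, chr19:36120039-36120064, minus strand: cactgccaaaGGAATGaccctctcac
Ankrd1, core beginning 123 bases before, chr19:36119952-36119977, minus strand: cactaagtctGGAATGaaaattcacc
Amotl2, core ending 60 bases before, chr9:102717729-102717754, plus strand: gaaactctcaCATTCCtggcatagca
Ajuba, core ending 181 bases before, chr14:54577832-54577857, minus strand: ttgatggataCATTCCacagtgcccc
Ajuba, core ending 159 bases before, chr14:54577810-54577835, minus strand: cccctccgcgCATTCCaactgtaaac
Axl, core ending 228 bases before, chr7:25788951-25788976, minus strand: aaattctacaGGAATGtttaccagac
Yap1, core beginning 141 bases before, chr9:8004722-8004747, minus strand: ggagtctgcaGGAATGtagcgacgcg
Ankrd1 and Ajuba held the core at more than 1 place, and the match in Lats2 lies after the start site and is not shown. A match is a description of the letters, not a measured binding site. Of the other signature genes, 2 of the 10 with a window held the core, and of the other Hippo pathway genes 10 of 23 did. The AP-1 motif TGANTCA was in none of the windows of these genes and in 7.81% of all windows, and the CArG box that SRF binds was in none and in 1.63% of all.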

How the data were processed

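MARS-seq libraries of sorted stomach fibroblasts, 3 CAF and 3 normal, were analysed from the deposited table of the authors' raw counts per gene symbol. Per the submitters' processing notes, cutadapt, STAR, HTSeq and DESeq2 were used with the mouse build mm10. The sources used here give no versions, annotation, strand setting or handling of molecular identifiers. The normalized signal deposited by the authors is each raw count over that library's size factor, and their rld values are on a log2 scale per the file headers. Neither was used in a test. The log2 fold changes, p-values and adjusted p-values of the authors' deposited comparison are quoted as such.

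The test was edgeR 4.0.16 under R 4.3.3 on the raw counts (filterByExpr, TMM library sizes, glmQLFit and glmQLFTest on the group alone, Benjamini-Hochberg adjustment over 10148 genes, threshold 0.05), a script tested on simulated data. Standard errors are approximate (the log2 fold change over the square root of F). CPM are on the scaled library sizes, and likeness used log2 CPM with a prior count of 2. Ratios of pooled rates and shares carry exact 95% intervals for counting error. Alternatives were DESeq2 1.42.0, limma-voom 3.58.1, other scalings and filters, the number of mice as a covariate, the gland markers removed, and libraries left out. No replicate pair agreed within counting noise. Gene positions are from GENCODE (mm10), and promoter sequences are from RefSeq (GRCm38.p6).

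The members and lists were chosen with earlier results of these data known. Named were all 10 genes, the other CCN genes, the called genes of each list or otherwise the 3 of smallest p in each direction, and the 3 genes most like Ccn1, Ccn2 and Yap1.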

Additional observations from a re-analysis of the deposited data

How the results depend on the processing

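edgeR called 112 genes in all, against 792 by DESeq2, 65 by limma-voom and 0 when normal libraries 1 and 2 were both left out (1271 at an unadjusted p under 0.05). Leaving out 1 library gave 0 calls without normal library 1 (793 at an unadjusted p under 0.05) to 1193 without normal library 3, so the number of calls depends on single libraries. Of the 10 CCN and YAP/TEAD genes, 1 was called (Ccn5), against 3 by DESeq2 (Ccn5, Ccn2 and Ankrd1), 0 by limma-voom (Ccn5 adjusted p = 0.0572), 0 without normal libraries 1 and 2, and 0 to 2 with 1 library left out. Of the YAP/TAZ signature and of the Hippo genes, DESeq2 called 2 each and edgeR 0, or 0 to 1 with 1 library left out (Ccn2 and Tead3, each without normal library 3). The cause of these shifts was not tested. Without normal libraries 1 and 2 the log2 fold change was -0.29 for Ccn1 and -0.069 for Yap1, and a covariate for the number of mice gave -0.219 for Yap1. With 1 library left out it ran from -0.156 to 0.286 for Yap1, from -0.437 to 1.22 for Ccn3 and from 4.45 to 5.54 for Ccn5. Ankrd1 gave no value without CAF library 2 because it fell under the filter, and Ccn4 none without CAF library 2, without CAF library 3 or with a minimum of 10 counts. Fits with 1 normal library assume that it varies as the CAF libraries do. Depth limits low genes: 1 count was worth up to 1.45 CPM. No paired analysis was possible because the labels tie no CAF library to a normal library, and replicate numbers only follow the order of deposit.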
